A study of Mus musculus with 12 samples.

Results

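The 9 genes described here, Tfam, Tfb1m, Tfb2m, Polg, Polg2, Polrmt, Ssbp1, Nrf1 and Gabpa, encode the nuclear-encoded factors that copy and transcribe mitochondrial DNA and 2 nuclear transcription factors known to control them. They were chosen by name, with earlier results of these data known. All 9 were found by symbol among the 23163 genes of the count table. All 9 passed the low-count filter in each of the 5 comparisons. Their transcripts were measured by RNA sequencing of total RNA from 2 fat depots, brown (BAT) and white subcutaneous (sWAT) adipose tissue, of male wild-type mice of the inbred C57Bl/6 strain. The 20 mice, aged 8 to 12 weeks, carried no transgene or deleted allele according to the labels, and 10 were kept at 4 °C (cold) and 10 at 30 °C (thermoneutral, where a mouse needs no extra heat production) for 72 h. Each of the 4 groups (BAT cold, BAT thermoneutral, sWAT cold, sWAT thermoneutral) has 3 libraries, numbered 1 to 3. How the mice were divided among the libraries is not stated, so p-values measure the spread between these libraries, which may be partly technical.

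Mitochondria keep a small circular genome that encodes subunits of the respiratory chain together with the ribosomal and transfer RNAs needed to translate them, while every protein that copies or transcribes this genome is made from nuclear genes and imported. The RNA polymerase POLRMT starts transcription with TFAM, which bends the promoter and also coats the DNA into nucleoids, and with TFB2M, which opens the promoter; DNA polymerase gamma (a POLG catalytic subunit with POLG2 accessory subunits) copies the DNA with the help of the single-strand binding protein SSBP1 and the helicase Twinkle. NRF1 and GABPA (the DNA-binding subunit of NRF2) are nuclear activators of many of these genes, and in brown and beige fat the coactivator PGC-1α (Ppargc1a) is known to act with them when mitochondria are built for heat production.

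GABPA is an ETS-family factor, so the stretch before the start site of each gene was searched for the ETS-type letters CCGGAAG on both strands. The windows were the 250 bases before the start sites in the RefSeq table for GRCm38.p6 (the build also called mm10), in which all 9 genes were found. The letters occurred in 6 of the 10 windows of the 9 genes, each of a different gene, and in 6.91% of all 32851 windows. The 6 matches are shown because ETS-type letters are the kind that GABPA, itself one of the 9, is known to bind; each stretch of 27 bases is written 5′ to 3′ on the strand of its gene with the match in capitals, and CTTCCGG is the same motif read on the opposite strand.
Tfam (chr10:71238075-71238101, minus strand): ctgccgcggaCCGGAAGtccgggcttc
Polg (chr7:79466295-79466321, minus strand): aggacctcacCCGGAAGtccctctgca
Polg2 (chr11:106779550-106779576, minus strand): gggtgacgctCTTCCGGgggcgtggtc
Polrmt (chr10:79746608-79746634, minus strand): cctaagagcgCTTCCGGcagtcgcaga
Ssbp1 (chr6:40471411-40471437, plus strand): gctccgtgcgCCGGAAGcgagccgctg
Gabpa (chr16:84835021-84835047, plus strand): agggtaagtgCTTCCGGgtccctcagc

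The match lay 47 to 41 bases before the RefSeq start in both Tfam and Ssbp1, 38 to 32 in Polg, 29 to 23 in Polg2, 43 to 37 in Polrmt and 93 to 87 in Gabpa. In the GENCODE M21 annotation the stretches of Tfam, Polg, Ssbp1 and Gabpa fall in an untranslated region of a transcript of the same gene that starts further upstream, that of Gabpa also in an exon of its neighbour Atp5j, and those of Polg2 and Polrmt in no annotated gene. Tfb1m, Tfb2m and Nrf1 did not hold the letters in this window. The long NRF1-type palindrome, searched with 1 free position in its centre, was found before none of the 9 genes and in 3.74% of all windows. Its 8-letter core, CGCATGCG, was added after the sequences were read and occurred before Gabpa only, 8 to 1 bases from the start, and in 1.55% of windows. The letters AAGGTCA of the estrogen-related receptors occurred before none of the 9 (4.08% of windows). The YY1-type letters AAGATGGC occurred before Gabpa (1.56%), and the GC box GGGCGG before 6 of the 9, in 6 of the 10 windows (32.7%). A match is a description of the letters, and the absence of one says only that these letters are not in this window. The genes with and without the ETS-type letters did not divide by direction in what follows: of the 4 that rose in cold sWAT, Tfam and Gabpa hold them and Tfb1m and Tfb2m do not.

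Several properties of the libraries touched these genes and are given first. Total counts ran from 27117934 to 56243016 per library, and the 9 genes had between 36 counts (Polg2 in BAT cold library 1) and 6813 counts (Gabpa in BAT thermoneutral library 3). The 13 mitochondrially encoded mRNAs took 17.6% to 53.8% of the counts in the BAT and cold sWAT libraries and 0.181%, 0.307% and 0.231% in the 3 thermoneutral sWAT libraries, with 95% Wilson intervals no wider than 0.0345 percentage points that cover counting error only. Since all 3 libraries of that group share this low value, it cannot be told apart from depot and temperature. The libraries also differed in how level depended on GC content (the percentage of G and C bases in the longest transcript). The slope over genes of log2 CPM (counts scaled by library total and TMM factor to a common size) was 1.46, 1.17 and 0.87 per 10 points of GC content in thermoneutral sWAT, -0.72 in BAT cold library 3, -0.41 in BAT thermoneutral library 3, -0.36 in sWAT cold library 1 and between -0.10 and 0.32 in the other 6. Adipocyte markers were detected in every library, and Ucp1, the uncoupling protein of thermogenic fat, was at 1914 ± 586 CPM in thermoneutral and 21840 ± 1582 CPM in cold BAT, and at 176 ± 179 and 9376 ± 5371 CPM in sWAT (mean ± SD, n = 3 in each group). Markers of other cell types moved between the sWAT groups as well. The 10 lymphocyte markers summed to 666 to 891 CPM in thermoneutral and 162 to 470 CPM in cold sWAT against 3.32 to 9.45 CPM in all BAT libraries, the 10 skeletal muscle markers to 104 to 4661 and 7307 to 20040 CPM in thermoneutral and cold sWAT, and the 6 macrophage markers to 669 to 1206 and 217 to 362 CPM; none of these markers was at 0 counts in any library. The results for the 9 genes were refitted with an offset that removes the GC trend in each library's difference from the mean of the libraries in the fit. All 3 thermoneutral sWAT libraries share the steep slope, so the offset also removes any response to depot or temperature that runs with GC content. These cannot be told apart, and values with the offset are an alternative scale. A refit with library totals that leave out the mitochondrially encoded genes gave the same counts of members called in all 5 comparisons. The part of the other cell types in the results for the 9 genes was not tested. In bulk tissue, fewer cells of a type and less RNA per cell cannot be told apart.

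**Figure D1:**
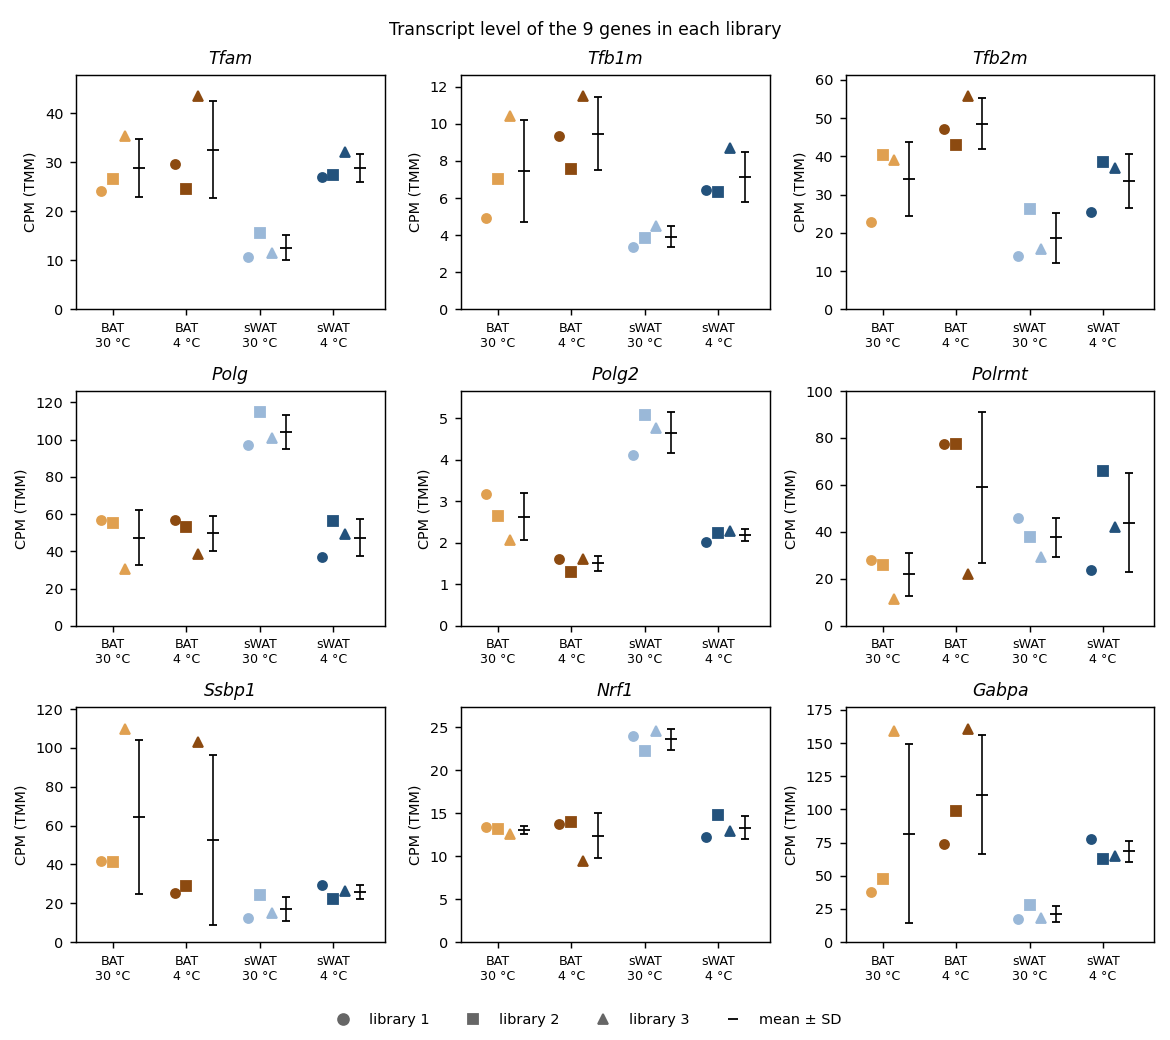
CPM (linear axes from 0) of each of the 9 genes in the 12 libraries, with points for libraries 1 to 3 and bars for the mean ± SD of each group (n = 3). Thermoneutral sWAT is the lowest group for Tfam, Tfb1m, Tfb2m, Ssbp1 and Gabpa and the highest for Polg, Polg2 and Nrf1, and library 3 of both BAT groups lies apart for Ssbp1, Polrmt and, in thermoneutral BAT, Gabpa.

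In cold sWAT, 4 of the 9 transcripts rose (Tfam, Tfb1m, Tfb2m and Gabpa) and 3 fell (Polg, Polg2 and Nrf1), while 49.2% of the 15731 genes tested were called, 25.1% higher and 24.1% lower. Calls are at a Benjamini-Hochberg adjusted p under 0.05 over all genes tested in edgeR's quasi-likelihood test, and fold changes are log2 values of cold over thermoneutral with their standard error (SE). With 7 of 9 called against 49.2%, the median change of the 9 genes was 0.61 and that of all genes 0.00. Direction ran with GC content over all genes. Among those under 45% GC, 51.0% were called higher and 4.95% lower, and of those at 55% or more, 6.07% and 49.1%. Once the GC offset was added, 1 of the 9 genes was called higher (Polrmt) and 4 lower (Polg, Polg2, Nrf1 and Ssbp1), beside 3271 higher and 3369 lower of all 15303 genes with a GC value.

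Tfam, at 44.9% GC, encodes the factor that packages mitochondrial DNA and helps start its transcription. Its level was 10.7, 15.6 and 11.5 CPM in thermoneutral sWAT libraries 1 to 3 and 27.1, 27.4 and 32.0 CPM in cold sWAT. All cold libraries lay above all thermoneutral ones, as did 30.1% of all genes (30.5% lay wholly below, 60.6% in all). The log2 fold change was 1.20 ± 0.24 (SE; edgeR adjusted p = 0.00424) and was past the threshold without any single library. Adding the GC offset gave 0.52 with an adjusted p of 0.0976.

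Tfb1m, an rRNA methyltransferase of the mitochondrial ribosome, and Tfb2m, the initiation factor, are paralogues. Tfb1m was at 3.37, 3.85 and 4.51 CPM in thermoneutral and 6.43, 6.30 and 8.70 CPM in cold sWAT, without overlap, a log2 change of 0.87 ± 0.29 (adjusted p = 0.0336). Tfb2m was at 14.0, 26.2 and 15.8 CPM in thermoneutral and 25.5, 38.4 and 37.1 CPM in cold sWAT, where cold library 1 lay just under thermoneutral library 2, and its log2 change was 0.85 ± 0.30 (adjusted p = 0.04004). Both calls rest on single libraries and settings. Tfb1m was past the threshold only while cold libraries 2 and 3 and thermoneutral libraries 1 and 2 were all kept (adjusted p = 0.0511, 0.146, 0.0805 and 0.0970 without them), and Tfb2m only with cold libraries 2 and 3 and thermoneutral libraries 1 and 3 (0.104, 0.116, 0.127 and 0.125). Tfb1m was also not called without the low-count filter (0.0533), nor Tfb2m with upper quartile scaling (0.05035). Under the GC offset the changes were -0.16 (adjusted p = 0.631) for Tfb1m and -0.17 (0.683) for Tfb2m. An overlap of 142 bases between the exons of Tfb1m and the opposite-strand gene Tiam2 leaves a small part of its counts uncertain, since the strand setting of the counting is not given in the sources used here.

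Gabpa changed most among the 9 in sWAT on this scale. It was at 17.0, 28.2 and 18.0 CPM in thermoneutral and 77.5, 62.6 and 65.1 CPM in cold sWAT, and the lowest cold library was well above the highest thermoneutral one. The log2 fold change was 1.71 ± 0.27 (adjusted p = 0.00137), past the threshold without any single library. At 41.4% GC it is among the AT-rich members, and with the GC offset its change was 0.45 (adjusted p = 0.157). The genes for its partner subunits, from the list of regulators, did not pass the test: Gabpb1 changed by 0.38 ± 0.37 (adjusted p = 0.407) and Gabpb2 by 0.41 ± 0.34 (0.334). Exons of Gabpa overlap those of the opposite-strand gene Atp5j over 397 bases, 6.98% of its exon length.

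The genes of the replicative polymerase went the other way. Polg, the catalytic subunit, was at 97.1, 114.7 and 100.6 CPM in thermoneutral and 36.9, 56.2 and 49.1 CPM in cold sWAT. The groups did not overlap, and the log2 fold change of -1.14 ± 0.24 (adjusted p = 0.00512) passed the threshold in all 16 alternatives tried, the GC offset included (-0.84, adjusted p = 0.0163). Its exons share 921 bases, 8.57% of their length, with the opposite-strand repair gene Fanci. Polg2, the accessory subunit, had the fewest counts of the 9 (73 to 251 in the sWAT libraries) and was at 4.12, 5.08 and 4.77 CPM in thermoneutral and 2.02, 2.24 and 2.29 CPM in cold sWAT. Its log2 change was -1.09 ± 0.29 (adjusted p = 0.0129), and -1.49 (0.00334) with the GC offset. Without cold library 3 its adjusted p was 0.0523. Per kilobase of exon, Polg stood above Polg2 in about the same ratio in both groups, 9.56, 9.17 and 8.55 in thermoneutral and 7.40, 10.2 and 8.68 in cold sWAT.

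Nrf1, the activator whose targets include genes of respiration and mitochondrial transcription, was also lower in the cold. It was at 24.0, 22.2 and 24.6 CPM in thermoneutral and 12.3, 14.8 and 12.9 CPM in cold sWAT, 2 narrow groups without overlap. The log2 fold change was -0.83 ± 0.22 (adjusted p = 0.0140) and -1.42 (0.00230) with the GC offset, and without cold library 3 the adjusted p was 0.0680. So the 2 nuclear activators among the 9 genes, Nrf1 and Gabpa, were called in opposite directions on the scale without the GC offset, and with it only the fall of Nrf1 was called.

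Polrmt and Ssbp1 were not called in sWAT. Polrmt, the RNA polymerase and at 60.5% GC the most GC-rich of the 9, was at 46.0, 37.8 and 29.1 CPM in thermoneutral and 23.6, 65.7 and 42.1 CPM in cold sWAT, with cold library 1 below all thermoneutral libraries and cold library 2 above them. Its log2 change was 0.21 ± 0.36 (adjusted p = 0.654), and 1.20 (0.00474) with the GC offset. Ssbp1, the single-strand DNA-binding protein and at 41.0% GC the most AT-rich, was at 12.2, 24.2 and 14.9 CPM in thermoneutral and 29.5, 22.3 and 26.1 CPM in cold sWAT. These groups overlapped through thermoneutral library 2, without which its change of 0.61 ± 0.30 (adjusted p = 0.116) became 0.92 (0.0418). The GC offset turned it to -0.70 (0.0478).

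**Figure D2:**
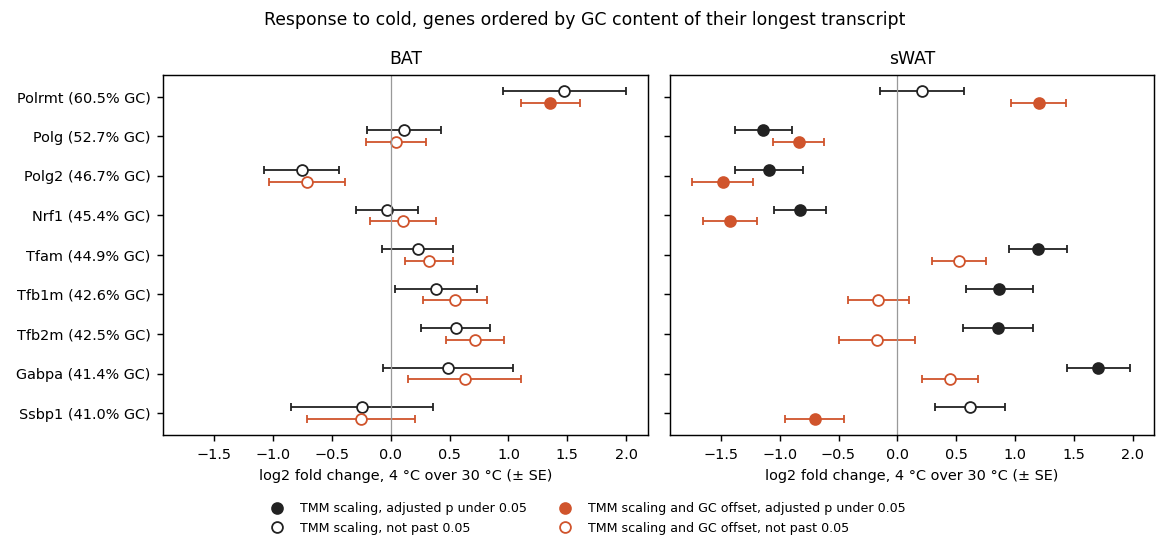
Log2 fold change of cold over thermoneutral ± SE for the 9 genes in BAT (left) and sWAT (right), ordered by GC content, with TMM scaling alone (black) and with the GC offset added (orange); filled points have an adjusted p under 0.05. In sWAT the offset moves Polrmt from 0.21 to 1.20 and Gabpa from 1.71 to 0.45, while Polg, Polg2 and Nrf1 are below 0 and filled on both scales.

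In BAT, none of the 9 genes passed edgeR's test for cold against thermoneutral, where 12.2% of the 14612 genes tested were called (6.82% higher, 5.34% lower). This share itself rests on single libraries: the calls numbered 996 higher and 781 lower with all libraries, but only 362 and 167, or 305 and 146, when library 1 or 2 of the cold group was left out, and 338 and 250, or 303 and 200, when library 1 or 2 of the thermoneutral group was. Of the 9, 2 had an unadjusted p under 0.05 (Polrmt and Polg2), and DESeq2 called 1 (Polrmt) and limma-voom 0. The median log2 change of the 9 genes was 0.23 against -0.04 over all genes. With 3 libraries in each group and library 3 apart in both, this does not show that the genes were unchanged.

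Polrmt had the largest difference in BAT, not past the threshold. It was at 28.1, 26.1 and 11.4 CPM in thermoneutral and 77.3, 77.6 and 22.0 CPM in cold BAT libraries 1 to 3, so that libraries 1 and 2 of the cold group lay well above every thermoneutral library and cold library 3 lay among them. Library 3 was 3.52-fold below the other 2 in the cold group and 2.36-fold below them in the thermoneutral group. The log2 fold change was 1.48 ± 0.52 with an edgeR adjusted p of 0.09997. It was 1.88 (adjusted p = 0.0190) without cold library 3, 1.56 (6.41e-05) without both libraries numbered 3, 1.36 (0.00727) with the GC offset and 1.501 (0.0278) with DESeq2. Polrmt was also called with the experiment number as a replicate block, as given below. In all it passed in 6 of 17 alternatives, and in the others its adjusted p ran up to 0.267. The fit without both libraries numbered 3 also called a far larger share of all genes, as given below. For each library number the cold library was above the thermoneutral one, but what that number stands for is not stated.

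The other factors of transcription and packaging did not pass the test in BAT either. Tfam was at 24.3, 26.6 and 35.5 CPM in thermoneutral and 29.7, 24.6 and 43.6 CPM in cold BAT, overlapping groups with a log2 difference of 0.23 ± 0.30 (adjusted p = 0.651). Tfb1m was at 4.92, 7.04 and 10.4 CPM in thermoneutral and 9.34, 7.57 and 11.5 CPM in cold BAT, also overlapping, with a difference of 0.39 ± 0.35 (0.492). Tfb2m was at 23.0, 40.3 and 39.2 CPM in thermoneutral and 47.1, 43.0 and 55.8 CPM in cold BAT. The cold Tfb2m libraries all lay above the thermoneutral ones, as did those of 16.3% of all genes (19.3% lay wholly below, 35.6% in all), but its difference of 0.55 ± 0.30 did not pass the test (adjusted p = 0.252).

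Of the replication genes in BAT, Polg was level and Polg2 lay lower. Polg was at 56.6, 55.02 and 30.5 CPM in thermoneutral and 57.0, 53.0 and 38.7 CPM in cold BAT, a log2 difference of 0.11 ± 0.31 (adjusted p = 0.846). Polg2 was at 3.17, 2.65 and 2.06 CPM in thermoneutral and 1.60, 1.30 and 1.61 CPM in cold BAT, groups without overlap whose difference of -0.76 ± 0.32 did not pass the test (adjusted p = 0.158) and rests on 36 to 95 counts per library. Without both libraries numbered 3 it was -0.97 with an adjusted p of 0.0259. The per-kilobase ratio of Polg to Polg2 was 14.4, 16.6 and 9.74 in cold and 7.23, 8.41 and 6.00 in thermoneutral BAT, higher in every cold than in any thermoneutral library, and no test was run on it.

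Ssbp1 and Gabpa in BAT had library 3 far above the others in at least 1 group. Ssbp1 was at 42.0, 41.3 and 110.0 CPM in thermoneutral and 25.4, 29.1 and 103.2 CPM in cold BAT, so that library 3 was 2.64-fold and 3.79-fold above the other 2 of its group. The log2 difference was -0.25 ± 0.60 (adjusted p = 0.821), and -0.57 (0.0184) without both libraries numbered 3. Gabpa was at 38.0, 47.9 and 159.4 CPM in thermoneutral and 74.0, 98.4 and 160.9 CPM in cold BAT, with library 3 3.73-fold and 1.88-fold above the others. Its log2 difference was 0.49 ± 0.55 (adjusted p = 0.593), 1.39 (0.0471) without thermoneutral library 3 and 1.04 (0.00218) without both libraries numbered 3. Nrf1 was at 13.3, 13.2 and 12.6 CPM in thermoneutral and 13.7, 14.0 and 9.39 CPM in cold BAT, with the lowest value again in library 3 of each group, and a difference of -0.03 ± 0.26 (adjusted p = 0.952).

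Leaving out both BAT libraries numbered 3 thus gave 4 calls among the 9 genes, Polrmt and Gabpa higher and Polg2 and Ssbp1 lower, with 2 libraries left in each group. In the same fit 3265 of 14566 genes were called higher and 3244 lower, a share of all genes as large as that of the 9. The deviation of library 3 from the other 2 libraries of its group ran with GC content over the 9 genes, with a Spearman rank correlation of -0.883 in cold and -0.933 in thermoneutral BAT and of -0.633 for library 1 of cold sWAT (n = 9 genes each, which share libraries). The cold response itself had a rank correlation with GC content of 0.03 in BAT and -0.667 in sWAT over the same 9 genes. With the GC offset 1 member was called in BAT, Polrmt, and the share of all genes called in that fit is not given here.

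**Figure D3:**
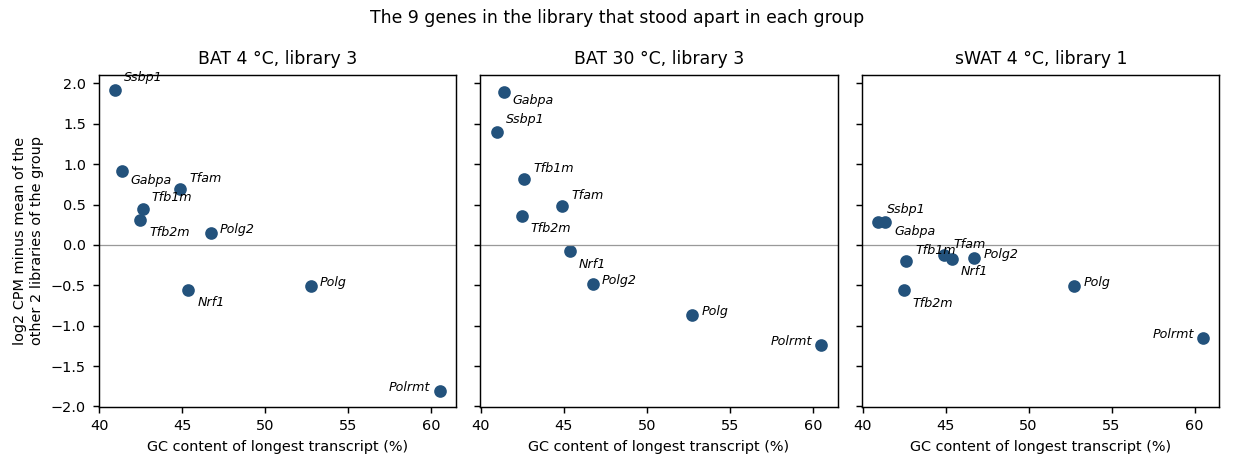
Log2 CPM of each gene in 1 library minus the mean of the other 2 libraries of its group (vertical axis) against the GC content of its longest transcript (horizontal axis, %), for BAT cold library 3, BAT thermoneutral library 3 and sWAT cold library 1. Ssbp1 and Gabpa, at 41.0% and 41.4% GC, lie highest and Polrmt, at 60.5%, lowest in all 3 panels.

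The difference between the cold responses of the depots was tested in 1 fit over all 12 libraries, in which 25.1% of 16365 genes differed (17.3% with a positive and 7.85% with a negative difference, sWAT minus BAT). Polg was the only one of the 9 called, its log2 response in sWAT minus that in BAT being -1.19 ± 0.40 (edgeR adjusted p = 0.0438). That call was lost in 10 of 23 alternatives, among them the fits without BAT cold library 1 or 2, without BAT thermoneutral library 3, without sWAT cold library 3 or without any one thermoneutral sWAT library (adjusted p = 0.0516 to 0.0896), and with the GC offset (-0.93, 0.0693). Tfam differed by 1.02 ± 0.38 and did not pass (adjusted p = 0.0630). Nrf1 differed by -0.74 ± 0.32 (0.106), and by -1.56 (0.0114) with the GC offset. Polrmt differed by -1.19 ± 0.69 (0.216) and Gabpa by 1.27 ± 0.66 (0.171), both with wide errors. For Tfb1m, Tfb2m, Polg2 and Ssbp1 the differences were 0.53, 0.36, -0.27 and 0.91, with adjusted p of 0.386, 0.566, 0.649 and 0.378. So the 6 members called in sWAT other than Polg are not shown to respond differently in BAT. Without both BAT libraries numbered 3, 4 members differed: Tfam (1.13, adjusted p = 0.0254), Ssbp1 (1.25, 0.0367), Nrf1 (-0.86, 0.0465) and Polg. The share of all genes called in that fit is not given here, so this count is not shown to be particular to the 9 genes.

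Between the depots at 30 °C, 5 of the 9 genes were higher in BAT (Tfam, Tfb1m, Tfb2m, Ssbp1 and Gabpa) and 3 lower (Polg, Polg2 and Nrf1), beside 58.7% of all 16365 genes called (29.9% higher, 28.8% lower). The thermoneutral sWAT libraries serve here and in the cold comparison of sWAT, so the 2 sets of calls share controls and are not independent. Ssbp1 was higher in BAT by 1.94 ± 0.53 on the log2 scale (edgeR adjusted p = 0.00726) and Gabpa by 1.98 ± 0.48 (0.00341), with all 3 BAT libraries above all 3 of sWAT for both. Tfam was higher by 1.21 ± 0.27 (0.00193), Tfb1m by 0.95 ± 0.31 (0.0185) and Tfb2m by 0.90 ± 0.30 (0.0220), the last with overlapping groups. The polymerase and Nrf1 were at their highest in thermoneutral sWAT. Polg was lower in BAT by a log2 value of -1.11 ± 0.28 (0.00452), Polg2 by -0.80 ± 0.28 (0.0260) and Nrf1 by -0.83 ± 0.23 (0.00681), all without overlap, where 34.2% of all genes lay wholly lower and 31.7% wholly higher (65.9% in all). Polrmt was lower in all 3 BAT libraries than in any of sWAT, but its difference of -0.76 ± 0.49 did not pass (adjusted p = 0.199). Tfam and Nrf1 were called in all 23 alternatives. With the GC offset, Tfam (0.63), Polg2 and Nrf1 were called and Tfb1m (0.00, adjusted p = 0.993), Tfb2m (-0.07, 0.857), Ssbp1 (0.74, 0.132), Gabpa (0.81, 0.110) and Polg (-0.54, 0.0689) were not. The share of all genes called is not given for this refit or the ones that follow. Without both BAT libraries numbered 3, Tfb1m (0.66, 0.0695), Tfb2m (0.81, 0.0525) and Polg2 (-0.63, 0.0837) were not called. The calls of these 3 genes also rested on single libraries: each was lost without BAT thermoneutral library 3 (adjusted p = 0.0857, 0.0590 and 0.0871), Tfb2m and Polg2 without BAT thermoneutral library 2 (0.0814 and 0.0512), and each without 2 of the sWAT libraries in turn (0.0512 to 0.0868).

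In the cold, none of the 9 genes differed between BAT and sWAT in edgeR's test, where 12.3% of all genes were called (1.19% higher in BAT, 11.1% lower). None had an unadjusted p under 0.05, and DESeq2 and limma-voom called 0. The GC offset called Ssbp1 (1.19, adjusted p = 0.0479), higher in BAT. The differences with the smallest adjusted p were those of Ssbp1 (1.03 ± 0.52, adjusted p = 0.237), Polg2 (-0.53 ± 0.29, 0.275) and Tfb2m (0.54 ± 0.30, 0.286). Tfb2m was higher and Polg2 lower in all 3 cold BAT libraries than in any cold sWAT library, where 12.9% of all genes lay wholly higher and 22.1% wholly lower (35.0% in all). Tfam differed by 0.19 (adjusted p = 0.717), Polg by 0.07 (0.909) and Nrf1 by -0.09 (0.849). Gabpa differed by 0.71 ± 0.47 (0.372), Polrmt by 0.44 (0.634) and Tfb1m by 0.42 (0.438), and with SEs of this size a difference of that magnitude was not detectable.

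Levels can be set side by side between genes only per length of transcript, here as mean CPM per kilobase of exon. In cold BAT the order was Gabpa (19.5), Tfb2m (17.3), Polrmt (12.6), Tfam (7.35), Ssbp1 (6.29), Polg (4.61), Tfb1m (2.62), Nrf1 (1.20) and Polg2 (0.345). The range of Polg lay above that of Tfb1m, that of Tfb1m above Nrf1 and that of Nrf1 above Polg2, and the neighbours higher up overlapped. Thermoneutral BAT had the same 3 genes at the bottom (Tfb1m 2.07, Nrf1 1.27, Polg2 0.604), with Ssbp1 (7.71) after Gabpa (14.4) and Tfb2m (12.2). In cold sWAT Gabpa and Tfb2m were level at 12.0, followed by Polrmt (9.36), Tfam (6.50), Polg (4.41), Ssbp1 (3.11), Tfb1m (1.98), Nrf1 (1.30) and Polg2 (0.502). Thermoneutral sWAT had another order, led by Polg (9.70) and Polrmt (8.03), whose ranges overlapped, then Tfb2m (6.65), Gabpa (3.702), Tfam (2.84), Nrf1 (2.30), Ssbp1 (2.04), Tfb1m (1.08) and Polg2 (1.07). The ranges of Tfb2m, Tfam and Ssbp1 each lay above that of the next gene in this group. Dividing by the longest transcript instead of all exons changed ranks in every group. Ssbp1 moved from rank 3 to 2 in thermoneutral BAT and from 5 to 4 in cold BAT. Tfb1m and Nrf1 exchanged ranks 7 and 8 in thermoneutral BAT and in cold sWAT. In thermoneutral sWAT Nrf1 moved from rank 6 to 4, Tfam from 5 to 7, Tfb1m from 8 to 9 and Polg2 from 9 to 8. Other neighbours in the order also exchanged ranks. Polg2 was last in the other 3 groups on both measures.

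**Figure D4:**
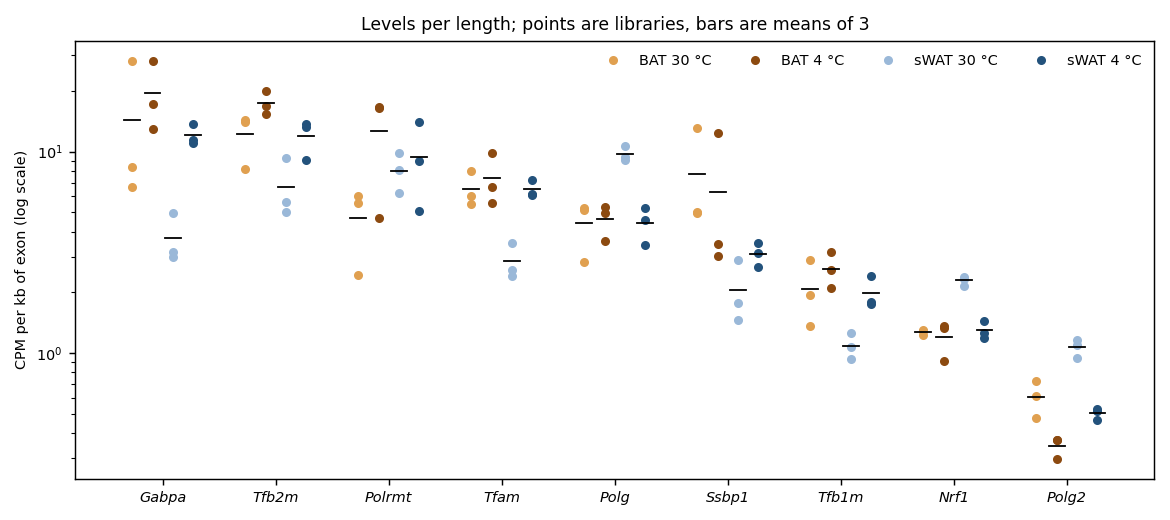
CPM per kilobase of exon (log axis) of the 9 genes in the 12 libraries; points are libraries, colours are the 4 groups and bars are group means (n = 3). Polg2 is last in every group (0.345 to 1.07), and Polg is first in thermoneutral sWAT at 9.70 and between 4.41 and 4.61 in the other groups.

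Over the 12 libraries, the members most alike in profile were Tfam and Tfb1m, with a root mean square difference of 0.242 log2 units after each gene was centred, followed by Polg and Nrf1 (0.261), Tfam and Tfb2m (0.284) and Tfb1m and Tfb2m (0.285). The least alike were Polg2 and Gabpa (1.58), Polg and Gabpa (1.56) and Polrmt and Ssbp1 (1.55). Among 8487 genes of sufficient level, the nearest to Tfam were Acer3 (0.144), Mtmr1 (0.152) and Gtf2h1 (0.152), the nearest to Tfb1m were Grpel2 (0.116), Secisbp2l (0.184) and Mina (0.185), and the nearest to Tfb2m were Rab12 (0.18), Mrpl3 (0.188) and Yae1d1 (0.191). Polg was nearest to Nob1 (0.139), Nagk (0.139) and Strn4 (0.148), Polg2 to Pdcd7 (0.142), Tbrg1 (0.168) and Gpr137b (0.188), and Nrf1 to Araf (0.118), Toe1 (0.122) and Zfyve1 (0.138). Polrmt lay nearest to Aacs (0.172), Med16 (0.205) and Pex14 (0.228). Gabpa and Ssbp1 had no gene as near as the others had: Mtmr2 (0.285), Pex3 (0.305) and Usp16 (0.308) for Gabpa, and Luc7l3 (0.395), Bdp1 (0.409) and Asun (0.410) for Ssbp1. The median distance over the 8487 genes ran from 0.742 for Tfb1m and Nrf1 to 1.05 for Ssbp1 and 1.08 for Gabpa, so the 2 genes with no near neighbour were also the farthest from genes in general. The 12 points of each profile share the library properties given above.

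Other genes of mitochondrial DNA replication, repair and packaging were divided in direction in sWAT. The shares of all genes called in sWAT, 25.1% higher and 24.1% lower, stand as background to each list here, as do 6.82% and 5.34% in BAT. They hold for the fits with all libraries and TMM scaling alone. List counts without both BAT libraries numbered 3 stand against the much larger share of all genes given above for that fit. No such share is given for BAT with the GC offset or DESeq2, or for the depot difference with the GC offset. Of 21 replication and repair genes tested, 4 rose and 7 fell in the cold, not far from the shares of all genes. Their median log2 change was -0.42 against 0.00 over all genes. Clpx, part of the ClpXP protease, rose by 2.02 ± 0.27 (edgeR adjusted p = 0.000706), and Twnk, the Twinkle helicase, by 1.02 ± 0.29 (0.0175). The base excision glycosylase Mutyh (-2.13 ± 0.30, 0.000844), the flap endonuclease Fen1 (-2.03 ± 0.29, 0.000952) and the topoisomerase Top3a (-1.05 ± 0.27, 0.0119) fell; Mutyh, Fen1 and Top3a also act in the nucleus. With the GC offset 5 rose and 6 fell. In BAT 1 of the 21 rose, Twnk (1.11 ± 0.28, adjusted p = 0.0369), from 25.4 ± 7.31 to 53.1 ± 5.95 CPM (mean ± SD, n = 3), and 1 fell, the nuclease-helicase Dna2 (-1.31 ± 0.34, 0.0389). Without both BAT libraries numbered 3 these counts were 8 and 2. The sums of the lymphocyte and macrophage markers, as given above, were higher in thermoneutral than in cold sWAT. Not every marker followed its sum. Of the 10 lymphocyte markers 6 were called lower in cold sWAT and 0 higher, and of the 6 macrophage markers 3 lower and 1 higher. The part of these cell types in the lower repair genes was not tested.

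Genes that supply nucleotides to the organelle were mixed. Of 17 tested in sWAT, 6 rose and 4 fell, not far from the shares of all genes. The succinyl-CoA ligase subunit Sucla2 rose by 4.34 ± 0.46 (edgeR adjusted p = 0.000370) and the GTP:AMP phosphotransferase Ak3 by 1.80 ± 0.27 (0.00115), and the dUTPase Dut fell by 2.15 ± 0.27 on the log2 scale (0.000571) and the mitochondrial thymidine kinase Tk2 by 1.73 ± 0.22 (0.000612). Tk2 and Dut were also the 2 of the 17 that fell in BAT, by 1.12 ± 0.28 (adjusted p = 0.0372) and 1.09 ± 0.30 (0.0472), and none rose there. Tk2 was at 50.5 ± 5.74 CPM in thermoneutral and 15.2 ± 0.841 CPM in cold sWAT and at 22.5 ± 4.56 and 10.0 ± 1.84 CPM in BAT. Without both BAT libraries numbered 3, 6 rose and 3 fell in BAT.

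Genes of mitochondrial transcription and RNA processing mostly rose in sWAT. Of 27 tested, 17 rose and none fell, with a median log2 change of 1.31, and with the GC offset 15 rose and 2 fell. The ribosome-associated PPR protein Ptcd3 rose by 2.99 ± 0.24 (edgeR adjusted p = 0.000198), Mterf2, of the family of transcription termination factors, by 3.72 ± 0.32 (0.000217), and the RNA-binding proteins Fastkd2 by 4.06 ± 0.43 (0.000372) and Fastkd1 by 3.12 ± 0.35 (0.000431). The elongation factor of POLRMT, Tefm, rose by 1.83 ± 0.36 (0.00390), and Lrpprc, which stabilises mitochondrial mRNAs, by 1.79 ± 0.24 (0.000735). These values were named after they were seen. In BAT 1 of the 27 passed the test, the oligoribonuclease Rexo2 (1.60 ± 0.34, adjusted p = 0.0202), with a median of 0.64 against -0.04 over all genes. The count in BAT was 12 up and 1 down with the GC offset, 9 and 1 with DESeq2, and 13 and 2 without both libraries numbered 3. In the test of the depot difference 11 of the 27 had a positive difference (sWAT minus BAT) and none a negative one. Of all genes, 17.3% had a positive and 7.85% a negative one. With the GC offset the counts of the list were 5 and 2. No share of all genes is given for BAT with the GC offset or DESeq2, or for the depot difference with the GC offset. The counts in those fits are not shown to be particular to these genes.

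Of 21 regulators upstream, 11 rose and 2 fell in sWAT, and 4 rose and none fell in BAT, where 8 rose and 4 fell without both libraries numbered 3 and 6 rose with the GC offset. Ppargc1a, the coactivator PGC-1α, went from 2.16 ± 0.368 to 137 ± 74.7 CPM in sWAT, a log2 change of 5.98 ± 0.48 (edgeR adjusted p = 0.000198), and from 63.2 ± 40.1 to 330.2 ± 120 CPM in BAT, 2.43 ± 0.51 (0.0202). The estrogen-related receptor Esrrg rose by 4.50 ± 0.33 (0.000174) in sWAT and 1.49 ± 0.39 (0.0415) in BAT. The kinase subunit Prkaa2 (3.96 ± 0.37, 0.000264) and the receptor Pparg (2.34 ± 0.27, 0.000437) rose in sWAT, and Esrrb (4.04 ± 0.41, 0.00169) and the host cell factor Hcfc1 (1.29 ± 0.32, 0.0359) in BAT. Upper quartile scaling left 2 of the 4 calls in BAT. Neither Nrf1 nor Gabpa was called in BAT, where Ppargc1a was. Of the 10 skeletal muscle markers, 7 were called higher and 0 lower in cold sWAT. The part of muscle in the higher regulators, and in the higher respiratory genes given next, was not tested.

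The respiratory genes that these factors serve moved in sWAT. Of 28 nuclear respiratory subunits, 15 rose and none fell, and 16 rose and 1 fell of the 27 with a GC value under the GC offset. Uqcrb rose by 7.29 ± 0.41 (edgeR adjusted p = 0.000174), Uqcrc2 by 3.47 ± 0.35 (0.000308), Ndufs1 by 3.02 ± 0.32 (0.000370) and the cytochrome c gene Cycs by 5.09 ± 0.75 (0.00110). Uqcrb and Cycs have processed pseudogenes, among which reads could be divided, and their values are uncertain. In BAT none of the 28 passed the test, with Sdha at 1.03 ± 0.33 (0.0754) and Atp5a1 at 1.13 ± 0.37 (0.0841) the nearest, while 3 rose and none fell with the GC offset and 9 rose and 1 fell without both BAT libraries numbered 3. All 13 mitochondrially encoded mRNAs were higher in cold than in thermoneutral sWAT, by a median of 7.80 on the log2 scale, the smallest adjusted p being those of mt-Atp8 (7.30 ± 0.49, 0.000174), mt-Nd6 (7.99 ± 0.56, 0.000174), mt-Nd2 (8.23 ± 0.58, 0.000174) and mt-Cytb (7.45 ± 0.55, 0.000174), the low group being the 3 libraries in which these mRNAs took 0.181% to 0.307% of the counts. None of the 13 passed in BAT, where mt-Nd2 (2.80 ± 0.83, adjusted p = 0.0626) and mt-Nd1 (1.99 ± 0.61, 0.0688) were nearest, while 3 rose with the GC offset, and 4 rose and 3 fell without both BAT libraries numbered 3. Over the 9 genes, the log2 changes in sWAT ran from -1.14 to 1.71.

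Between the depots at 30 °C, 29.9% of all genes were higher and 28.8% lower in BAT. Of the 27 genes of transcription and RNA processing, 18 were higher in BAT and none lower, and of the 21 regulators 12 and 1. The 21 replication and repair genes were divided, as were all genes, with 6 higher and 9 lower. Of the 28 nuclear respiratory subunits 20 were higher and none lower, and all 13 mitochondrially encoded mRNAs were higher. Clpx (2.08 ± 0.27, edgeR adjusted p = 3.33e-05), Sucla2 (4.58 ± 0.45, 5.77e-06), Ptcd3 (2.70 ± 0.25, 3.62e-06) and Esrrg (3.97 ± 0.39, 5.45e-06) were higher in BAT, and Mutyh (-2.42 ± 0.32, 4.70e-05), Fen1 (-2.72 ± 0.42, 0.000143) and the nucleoside diphosphate kinase Nme4 (-3.08 ± 0.51, 0.000227) lower. In the cold, where 1.19% of all genes were higher and 11.1% lower in BAT, none of the genes of these lists was higher and 5 were lower: Mutyh (-1.64 ± 0.34, edgeR adjusted p = 0.00580), the polymerase Polq (-1.88 ± 0.44, 0.0127), the dNTP hydrolase Samhd1 (-1.85 ± 0.40, 0.00758), the transcription factor Myc (-2.18 ± 0.44, 0.00510) and the corepressor Nrip1 (-1.35 ± 0.37, 0.0276). The GC offset changed this: 6 replication and repair genes, 3 of nucleotide supply, 12 of transcription and RNA processing, 6 regulators, 2 respiratory subunits and 3 mitochondrially encoded mRNAs were then higher in BAT and 5 genes lower, beside 2231 higher and 1742 lower of all 15898 genes. All 10 lymphocyte markers were lower in BAT in the same comparison, by a median of -5.89 on the log2 scale, and their part in these 5 differences was not tested.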

How the data were processed

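RNA from 12 libraries (4 groups of 3) was made into Illumina TruSeq libraries from 1000 ng of total RNA and sequenced with paired 100-nt reads, per the labels' protocols. The authors deposited 1 table of raw counts per gene; STAR, DESeq2 and the build mm10 are named in the submitters' processing notes, and the sources used here give no version, counting tool, strand setting or annotation. The labels call 2 libraries merged without saying of what. No 2 libraries of a group agreed within counting noise.

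Genes were filtered with filterByExpr (minimum count 10) and scaled with TMM, and CPM are TMM-scaled over the 12 libraries. The main test was edgeR 4.0.16's quasi-likelihood test (R 4.3.3, robust fit, Benjamini-Hochberg over all genes tested, threshold 0.05), fitted within each depot for cold against thermoneutral and over all 12 libraries for the 3 other comparisons; SE is the log2 fold change over the root of F. Alternatives were RLE and upper quartile scaling, totals without mitochondrially encoded genes, no filter, DESeq2 1.42.0, limma-voom (limma 3.58.1), a non-robust fit, the experiment number as a block, a GC offset (per-library loess, span 0.5), both together, leaving out both BAT libraries numbered 3, and leaving out each library. The scripts were tested on simulated counts with the same spread for every gene and without GC slopes or outlying libraries. That test does not cover these properties of the libraries. GC content, exon lengths and coordinates came from GENCODE M21, which gave a GC value for 95.9% of genes; symbols were matched directly.

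The 9 genes and all lists were chosen with earlier results of these data known. Named were the 9 genes, up to 4 genes of each list with the smallest adjusted p among those called in a comparison (up to 2 with the smallest p where none was), Ppargc1a and Ucp1, and for each member the 3 genes nearest in profile among those averaging 3 or more log2 CPM; Twnk in sWAT, Tefm, Lrpprc, Gabpb1 and Gabpb2 were named beyond this rule after their values were seen. The meaning of the experiment number is not stated and same-numbered libraries did not all deviate together, so the main test used no block. Between the BAT groups the correlations of same-numbered libraries were all positive (0.306, 0.067 and 0.289). The fit with the block is among the alternatives.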

Additional observations from a re-analysis of the deposited data

Results flagged for a closer look

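The cold response differed between sWAT and BAT for Polg (log2 response in sWAT minus BAT -1.19, edgeR adjusted p = 0.0438) among the 9 genes. The Polg call held in 13 of 23 alternatives. A further 22 genes from the lists around the 9 are named below. They were chosen because they passed this same test of the difference between the depots, up to a fixed number for each list. Their count is therefore set by the choice and is not a result. Of all 16365 genes tested, 25.1% differed.

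Among genes of replication and packaging, Clpx differed by 1.83 (adjusted p = 0.00421) and Fen1 by -1.65 (0.04998). Among genes of nucleotide supply, Sucla2 differed by 3.76 (0.00117), Suclg1 by 2.88 (0.0122), Ak3 by 1.29 (0.0279) and Nme4 by -3.06 (0.00741). In transcription and RNA processing the differences were 2.14 for Ptcd3 (0.00132), 3.16 for Fastkd2 (0.00145), 3.13 for Mterf2 (0.00173) and 2.65 for Fastkd1 (0.00231). Of the regulators, Ppargc1a differed by 3.61 (0.00383), Esrrg by 3.07 (0.00160), Prkaa2 by 2.75 (0.00747) and Pparg by 1.71 (0.00846). Of the respiratory genes, Uqcrb differed by 7.11 (1.71e-05), Ndufs1 by 2.79 (0.00160), Cycs by 5.004 (0.00242) and Uqcrc2 by 2.59 (0.00301). Of the mitochondrially encoded mRNAs, mt-Cytb differed by 7.23 (0.000362), mt-Nd4 by 7.02 (0.000744), mt-Nd1 by 6.49 (0.000748) and mt-Co1 by 7.05 (0.000840). All these differences include the 3 thermoneutral sWAT libraries with the low share of mitochondrial mRNA and the steep GC slope. Leaving the mitochondrially encoded genes out of the library totals, which TMM factors rescale in any case, kept the count of the 9 genes called in the depot difference at 1. That count covers none of the list genes named here, and why these libraries differ was not tested. The share of all genes called is not given for the fit with the GC offset that follows. With the GC offset, the genes with a positive difference numbered 1 of 21 in replication and packaging, 1 of 17 in nucleotide supply, 5 of 27 in transcription and RNA processing, 4 of 21 regulators, 7 of the 27 respiratory subunits with a GC value and 12 of 13 mitochondrially encoded mRNAs, against 1, 3, 11, 9, 7 and 13 without it.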

How the results depend on the processing

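Calls among the 9 genes moved mainly with the GC offset and with the BAT libraries numbered 3. In the following, a value after "and" within a bracket is from the GC offset joined with the experiment-number block. With the GC offset, the genes called higher in cold were 1 in BAT and 1 in sWAT (1 and 1 with the block joined), those higher in BAT 1 at 30 °C and 1 in the cold (also 1 and 1, but in the cold Ssbp1 without and Tfb2m with the block), and log2 values changed sign for Nrf1 in BAT (0.10 and 0.054), for Tfb1m (-0.16 and -0.18), Tfb2m (-0.17 and -0.19) and Ssbp1 (-0.70 and -0.66) in sWAT, for the depot difference of Tfb1m (-0.72 and -0.77), Tfb2m (-0.90 and -0.96), Ssbp1 (-0.45 and -0.49) and Gabpa (-0.18 and -0.30), for BAT against sWAT at 30 °C of Tfb2m (-0.069 and -0.069), Polrmt (0.46 and 0.42) and, with the block joined, Tfb1m (-0.028), and in the cold of Nrf1 (0.24 and 0.21). Without both BAT libraries numbered 3, 2 genes were higher and 2 lower in cold BAT, the depot difference (sWAT minus BAT) was called positive for 2 and negative for 2, 3 genes were higher in BAT at 30 °C, and the sign changed for Nrf1 in BAT (0.11) and for Tfam (-0.075) and Nrf1 (0.070) between depots in the cold. DESeq2 called 1 gene higher in cold BAT and 2 depot differences negative, and without a filter 0 were negative. Upper quartile scaling turned Polg in BAT to -0.060. The causes were not tested.

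Leaving out 1 library at a time, 0 to 1 genes were higher and 0 lower in cold BAT, 2 to 4 higher and 1 to 3 lower in cold sWAT, 0 to 2 depot differences were positive and 0 to 3 negative, 3 to 5 were higher and 2 to 3 lower in BAT at 30 °C, and 0 differed in the cold. The depot difference without BAT cold library 3 was called for Tfam (1.12), Ssbp1 (1.71), Polrmt (-1.79), Nrf1 (-1.08) and Polg. Signs changed within these ranges for Nrf1 (-0.14 to 0.14), Polg (-0.15 to 0.27), Ssbp1 (-1.21 to 0.35) and Tfam (-0.042 to 0.38) in BAT, Nrf1 between depots in the cold (-0.12 to 0.22) and Polrmt in sWAT (-0.17 to 0.51).

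The titles give an experiment number whose meaning is not stated, and same-numbered libraries did not all deviate together (correlations of their deviations 0.306, 0.067 and 0.289 between the BAT groups and -0.231, 0.187 and -0.312 between the sWAT groups). With the experiment number as a replicate block, 1 of the 9 genes was higher in cold BAT, Polrmt (1.37, adjusted p = 0.0133), Tfb1m in sWAT was not called (0.0637), 7 of 28 respiratory subunits (against 15) and 1 of 21 replication genes (against 4) rose in sWAT, 8 of 27 genes of transcription and RNA processing (against 1) rose in BAT, and all genes called in BAT numbered 1493 higher and 1306 lower against 996 and 781. Over all genes, other settings also moved the counts or their split in BAT: upper quartile scaling gave 774 and 1089 and leaving out both BAT libraries numbered 3 gave 3265 and 3244. The depot difference was 2824 and 1284 with TMM, 2423 and 1727 with RLE and 2884 and 2290 with DESeq2, and BAT against sWAT in the cold 195 and 1820 with TMM, 721 and 2055 with DESeq2 and 2231 and 1742 with the GC offset. Relative to TMM, the median log2 change of all genes in BAT moved from -0.04 to -0.20 with upper quartile scaling, that at 30 °C from 0.03 to 0.19 and that in the cold from -0.03 to 0.27 with the GC offset, and that of the depot difference from 0.12 to -0.03 with RLE. Depth limits Polg2 most, with 36 to 251 counts per library.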
